A study of Homo sapiens with 12 samples.

Results

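Interferon-stimulated genes are genes whose transcription rises when a cell senses interferon, and 39 listed by name are described here across hairpins. Each was read from the brightest probe set that the array annotation ties to that symbol alone, and 38 of the 39 were found among the 18417 genes of the table. STAT2 was not analysed here. No member had more than 1 probe set to choose from, so the choice of the brightest never came into play for them.

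Interferons of type I and type III bind receptors at the cell surface, and the kinases JAK1 and TYK2 then relay the signal to the nucleus. A complex that contains STAT2 and IRF9 binds the interferon-stimulated response element (ISRE) in promoters, and the gamma-activated site (GAS) is a further element of the pathway. The induced proteins sense foreign RNA, block viral translation and replication, attach the ubiquitin-like ISG15 to other proteins, or feed back on the pathway. Many tumour cell lines keep a low level of this programme without added interferon.

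The study measured total RNA of SK-mel147, an established human melanoma cell line, on 12 Affymetrix Human Gene ST arrays. All cells had been infected with a lentivirus that carries a short hairpin RNA, the controls too. There are 6 hairpins with 2 arrays each: scrambled and luciferase are the controls, sh_37 and sh_38 are directed against H2AZ2, and sh_83 and sh_84 are directed against H2AZ1. H2AZ1 and H2AZ2 encode the isoforms H2A.Z.1 and H2A.Z.2 of a histone variant that takes the place of H2A in some nucleosomes. The labels name no interferon or other added agent, and all arrays come from 1 cell line. For replicate 2 of sh_84 the title says sh_84 and the RNAi label names another hairpin. The title was followed, and these 2 arrays are called the arrays labelled sh_84. The labels do not say that replicates were separate cultures or infections, so a p-value here reflects only how far these arrays scatter, and that scatter may be technical. All values are log2 expression, a difference of 1 is a doubling, and a gene is called when its limma p, adjusted over all 18417 genes by the Benjamini-Hochberg method, is under 0.05.

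The medians over all genes lay between 7.67 and 7.72 in the 12 arrays. H2AZ2 fell by 1.12 with sh_37 (SE 0.08, limma adjusted p = 1.127e-05) and differed by -0.61 with sh_38 (SE 0.08, limma adjusted p = 0.002044), each against the 4 control arrays. H2AZ1 fell by 2.38 with sh_83 (SE 0.09, limma adjusted p = 1.307e-06). In the arrays labelled sh_84 H2AZ1 read 12.10 and 12.15 against 12.12 to 12.38 in the controls, a difference of -0.12 (SE 0.09, limma adjusted p = 0.8589), so a lower H2AZ1 level was not measured there. Of 9 melanocyte lineage markers, SOX10, a neural crest and melanocyte factor, averaged 10.47, MITF read 8.14 to 8.4 and MC1R 7.15 to 7.49. The pigment genes PMEL (5.53 to 5.86), MLANA (4.80 to 5.30), TYR (4.66 to 5.10) and TYRP1 (4.53 to 5.06) were dim in all arrays. S100A1 read 5.67 to 6.44 and S100B 5.04 to 5.78. AXL, a receptor kinase of dedifferentiated melanoma, read 12.10 to 12.58. Of 10 leukocyte markers, PTPRC, which all leukocytes carry, was the dimmest (4.05 to 4.28) and CD68, a lysosomal protein, the brightest (10.81 to 11.82).

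The promoters of the genes called in the arrays labelled sh_84 or with sh_38, where a window was at hand, are shown first. The ISRE is a promoter element of the interferon pathway. RefSeq windows of 300 bases (GRCh38.p14, 250 bases before the start and 50 after it) were at hand for 32 of the 39 genes, and not for IFIT2, IRF7, MX2, OAS2, OASL, TRIM22 and USP18. The ISRE was taken as GAAA, any 2 bases and GAAA again, searched on both strands, and the GAS as TTCNNNGAA, which reads the same on both strands. The ISRE letters were found in 23 of the 32 genes (71.9%), against 4.38% of the 27305 genes in the table and 3.57% of its 35116 windows. The GAS letters were found in 12 of 32 genes (37.5%), against 9.38% of all genes, and in 6 windows of the listed genes a GAS match overlapped an ISRE match. In 22 of the 23 genes, all but MX1, at least 1 match began within the 150 bases before the start. In the windows below the ISRE letters are in capitals and the rest is in lower case. A match is a description of the letters and not evidence of binding. GAAA repeats at another spacing were not counted, such as the gaaatgaaa in the window of IFI35. The lack of a match is therefore not evidence that the element is absent.

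The window of IFI6 (chr1:27672143-27672442, minus strand) holds 3 matches, that of TLR3 (chr4:186068906-186069205, plus strand) 1 and that of IFI35 (chr17:43006534-43006833, plus strand) none. These 3 genes were called in the arrays labelled sh_84. The windows of DDX60 (chr4:168318703-168319002, minus strand) and OAS3 (chr12:112938224-112938523, plus strand), which were called with sh_38, hold 2 matches each.
IFI6: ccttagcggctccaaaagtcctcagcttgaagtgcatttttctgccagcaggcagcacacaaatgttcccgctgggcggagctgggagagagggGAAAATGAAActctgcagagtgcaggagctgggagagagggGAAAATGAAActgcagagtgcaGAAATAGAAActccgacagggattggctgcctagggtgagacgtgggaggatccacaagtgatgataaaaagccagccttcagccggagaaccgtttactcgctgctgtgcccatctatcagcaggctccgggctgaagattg
TLR3: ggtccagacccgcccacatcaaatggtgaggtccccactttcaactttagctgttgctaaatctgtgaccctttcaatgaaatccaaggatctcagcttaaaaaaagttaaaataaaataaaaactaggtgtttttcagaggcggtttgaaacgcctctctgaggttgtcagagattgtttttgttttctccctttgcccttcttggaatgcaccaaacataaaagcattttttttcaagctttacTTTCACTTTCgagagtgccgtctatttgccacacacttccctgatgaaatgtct
IFI35: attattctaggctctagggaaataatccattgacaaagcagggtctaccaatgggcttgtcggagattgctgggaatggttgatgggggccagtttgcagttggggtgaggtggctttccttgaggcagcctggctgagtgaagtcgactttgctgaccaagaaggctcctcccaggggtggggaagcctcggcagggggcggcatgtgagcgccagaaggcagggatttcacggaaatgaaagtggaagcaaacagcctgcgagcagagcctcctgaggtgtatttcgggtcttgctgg
DDX60: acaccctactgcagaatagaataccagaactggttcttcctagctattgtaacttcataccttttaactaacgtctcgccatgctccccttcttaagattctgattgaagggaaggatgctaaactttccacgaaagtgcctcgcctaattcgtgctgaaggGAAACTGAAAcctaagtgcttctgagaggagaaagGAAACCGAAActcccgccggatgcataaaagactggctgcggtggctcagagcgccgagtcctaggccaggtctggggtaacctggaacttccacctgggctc
OAS3: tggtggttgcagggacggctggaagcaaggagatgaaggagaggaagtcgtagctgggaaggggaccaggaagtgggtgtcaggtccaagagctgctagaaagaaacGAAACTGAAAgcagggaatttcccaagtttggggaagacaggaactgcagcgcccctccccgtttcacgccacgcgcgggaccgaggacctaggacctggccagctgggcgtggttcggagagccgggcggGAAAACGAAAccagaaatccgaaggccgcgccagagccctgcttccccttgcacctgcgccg

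The hairpins differed in how the interferon-stimulated genes stood against the 4 control arrays, also within a target. With sh_37 the median difference over the 38 genes was 0.05, with sh_38 it was -0.10, with sh_83 it was 0.00 and in the arrays labelled sh_84 it was -0.29. Over all genes these medians were 0.01, 0.03, 0.01 and 0.01. In the arrays labelled sh_84, 36 of 38 genes lay below the controls (94.7%), against 47.6% of all genes. With sh_38, 27 of 38 did (71.1% against 43.3% of all genes), with sh_83 18 did (47.4% against 46.6%) and with sh_37 15 did (39.5% against 46.5%). These 4 comparisons share the same control arrays. Against scrambled alone 17 of 38 genes lay lower with sh_38 (44.7%, against 43.8% of all genes) and 12 with sh_83 (31.6% against 48.8%). With sh_37 9 did (23.7% against 51.4%). Against luciferase alone 29 lay lower with sh_38 (76.3% against 45.4%), 28 with sh_83 (73.7% against 48.5%) and 21 with sh_37 (55.3% against 45.7%). These shares thus depended on the control chosen, and sh_84 is set against each control below. Bulk RNA cannot tell a lower level in every cell from a smaller number of cells that express the genes.

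**Figure D1:**
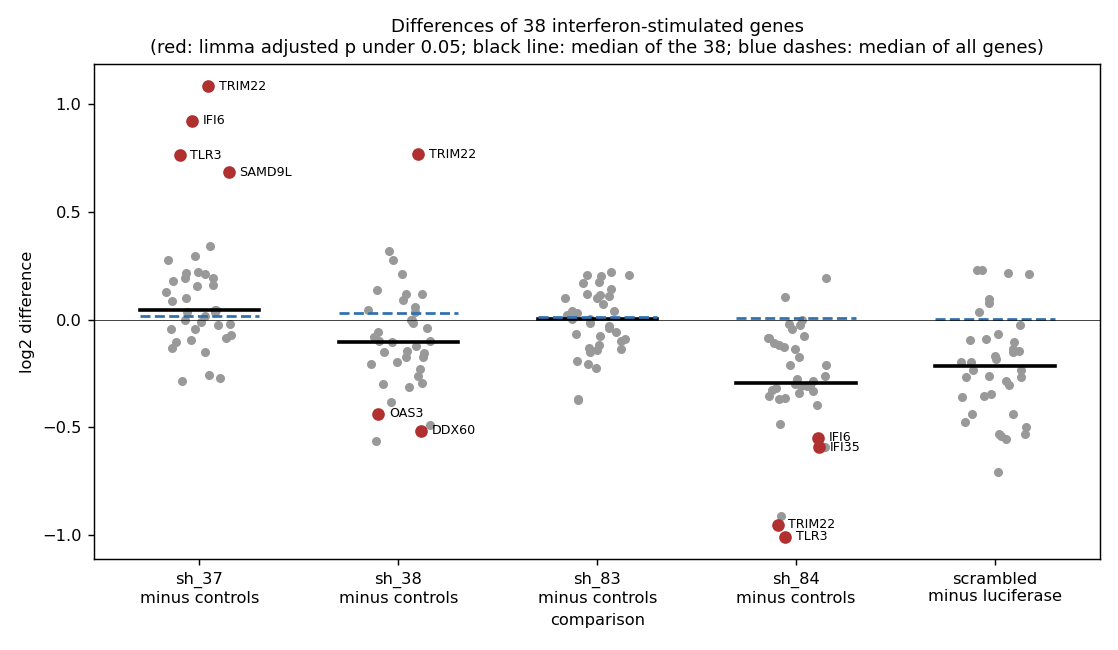
Log2 difference of each of 38 interferon-stimulated genes (points) in 5 comparisons, with 2 arrays per hairpin and 4 control arrays. Red points were called by limma (adjusted p under 0.05), the black line is the median of the 38 genes and the blue dashes are the median of all genes. The black line lies lowest for sh_84 (-0.29) and for scrambled minus luciferase (-0.22).

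In the arrays labelled sh_84, TLR3, TRIM22, IFI35 and IFI6 fell, and no listed gene rose. These 4 of 38 genes (10.5%) compare with 0.353% of all genes called in either direction, and with 0.342% called lower (63 genes lower and 2 higher). At an unadjusted p under 0.05 there were 20 listed genes, all lower (52.6%, against 8.36% of all genes). The 2 arrays lay wholly below the 4 control arrays for 14 of 38 genes, against 9.53% of all genes, and wholly above them for 0, against 4.76%.

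TLR3, the endosomal receptor for double-stranded RNA, read 6.18 and 6.28 in the arrays labelled sh_84, 7.34 and 6.94 with scrambled, 7.17 and 7.50 with luciferase, 8.0 and 8.01 with sh_37, 7.27 and 6.68 with sh_38, and 7.18 and 7.11 with sh_83. The sh_84 pair was the lowest and the sh_37 pair the highest of the 12 arrays, and neither overlapped any other hairpin. The difference of sh_84 from the controls was -1.01 (SE 0.16, limma adjusted p = 0.0298).

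TRIM22, a ubiquitin ligase that restricts retroviruses, read 7.27 and 6.70 in the arrays labelled sh_84, 7.78 and 7.75 with scrambled, 8.14 and 8.09 with luciferase, 9.02 and 9.02 with sh_37, 8.84 and 8.57 with sh_38, and 8.09 and 7.79 with sh_83. Its values split by hairpin on both sides of the controls: both H2AZ2 hairpins lay above every control array, the sh_84 pair lay below every other array, and sh_83 lay among the controls. The sh_84 difference was -0.95 (SE 0.15, limma adjusted p = 0.02894).

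IFI35, a protein that pairs with NMI, read 8.02 and 7.82 in the arrays labelled sh_84, while the other 10 arrays lay between 8.30 and 8.69. It fell by 0.59 on the log2 scale (SE 0.09, limma adjusted p = 0.02904). IFI6, a small membrane protein with antiviral and anti-apoptotic activity, read 8.35 and 8.33 there, against 8.73 and 8.82 with scrambled, 9.05 and 8.97 with luciferase, and 8.54 and 8.51 with sh_83. The sh_84 pair was the lowest of the 12 arrays, and sh_83 also lay below all 4 controls. IFI6 fell by 0.55 on the log2 scale with sh_84 (SE 0.09, limma adjusted p = 0.02963).

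Several further genes lay below the controls without passing the threshold. SAMD9L, which restricts poxviruses, read 6.75 and 6.34 in the arrays labelled sh_84, against 7.36 and 7.05 with scrambled and 7.64 and 7.77 with luciferase, a difference of -0.91 (SE 0.17, limma adjusted p = 0.05586). IFIT3, a member of the RNA-binding IFIT proteins, differed by -0.49 (limma adjusted p = 0.06665). PARP9, which works with the ubiquitin ligase DTX3L, differed by -0.59 (limma adjusted p = 0.2754). At the other end stood XAF1, an antagonist of the apoptosis inhibitor XIAP, at 0.19, OASL at 0.10 and IRF7, a driver of interferon transcription, at 0.00. For IFI35, IFI6, IFIT3, IRF9, LGALS3BP, OAS1, SAMD9L, TLR3 and TRIM22 the sh_84 pair lay below all other 10 arrays, 9 of 38 genes against 4.24% of all genes.

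The calls with sh_84 did not hold under all settings. Leaving out 1 array at a time gave 0 to 5 called genes: 0 without scrambled replicate 1, either luciferase array or sh_84 replicate 2, 1 without scrambled replicate 2, sh_84 replicate 1 or either sh_37 array, and 2 without either sh_83 array. A second quantile normalisation, or a fit of only the arrays compared, gave 0, and the mean level of 192 small nucleolar RNA genes as a covariate gave 8. That level was 7.16 and 6.94 in the arrays labelled sh_84 and ranged from 6.73 to 7.18 in the controls, and its part in the result was not tested. How many of all genes each of these settings called was not kept. Leukocyte markers gave array medians of 6.08 to 6.16 with sh_84 and 5.89 to 6.31 in the controls, and 0 of 10 of them were called. Of 7 fibroblast markers 1 was called lower, LUM, a matrix proteoglycan, at 8.07 and 7.87 with sh_84, 8.46 and 8.41 with scrambled, and 9.14 and 9.25 with luciferase (-0.85, limma adjusted p = 0.003961). The fibroblast array medians were 6.41 to 6.42 with sh_84 and 6.33 to 6.73 in the controls, and the part of these genes in the result was not tested.

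**Figure D2:**
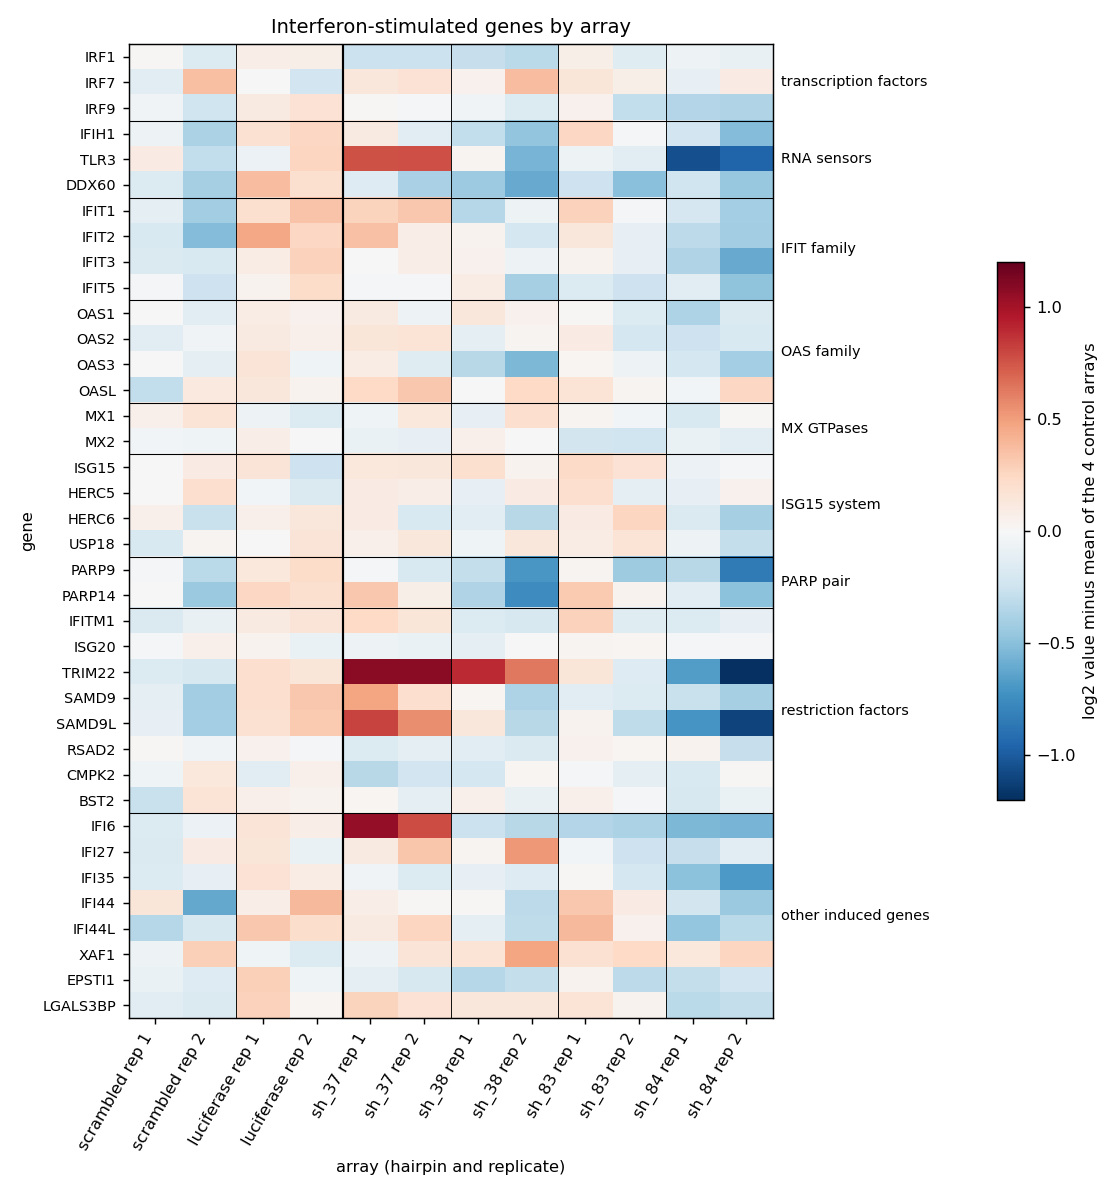
Log2 value minus the mean of the 4 control arrays for 38 interferon-stimulated genes (rows, grouped by role) in 12 arrays (columns, hairpin and replicate), with the colour scale running from -1.2 to 1.2. The sh_84 columns are mostly blue, the luciferase columns mostly red, and TRIM22, TLR3, SAMD9L and IFI6 carry the deepest colours.

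By role, the sh_84 shift against the 4 control arrays was seen in most groups of genes and was uneven in size. The 3 RNA sensors TLR3, IFIH1 and DDX60 had a median difference of -0.37 (range -1.01 to -0.34). The 4 IFIT genes, whose products bind viral RNA and block its translation, lay between -0.49 and -0.30. Of the 4 OAS genes, which make the oligoadenylates that activate RNase L, 3 lay below 0, with a median of -0.24. The pair PARP9 and PARP14 had a median of -0.45, and the 8 other induced genes, among them IFI35 and IFI6, one of -0.32. The size depended on the control. Against scrambled alone the medians were -0.15 for the RNA sensors, -0.1 for the IFIT genes and -0.17 for the OAS genes. They were -0.26 for the PARP pair and -0.15 for the other induced genes. Against luciferase alone the medians, in the same order, were -0.62, -0.62, -0.32, -0.65 and -0.51.

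The 8 restriction factors had a median of -0.13 with sh_84, from -0.95 for TRIM22 to -0.02 for the exonuclease ISG20. The 4 genes grouped here as the ISG15 system (ISG15, the ligase HERC5, its relative HERC6, and the protease USP18) had a median of -0.11. The GTPases MX1 and MX2 had one of -0.10. Among the transcription factors IRF9 differed by -0.35, IRF1 by -0.07 and IRF7 by 0.00. The widest spread within a role was that of the restriction factors.

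Genes with and without the ISRE letters as searched had similar median differences with sh_84. The 23 genes with a match had a median difference of -0.31 and all 23 lay below 0, and the 8 measured genes whose windows held none had a median of -0.28 with 7 below 0. IFI35 and SAMD9L are among the latter. Windows of IFI35, OAS1, XAF1 and CMPK2 hold GAAA repeats, on either strand, at a spacing that was not searched. These groups therefore cannot show whether the element itself separates the genes.

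The control hairpins were also compared with each other, 2 arrays against 2. Between scrambled and luciferase 0 of the 38 genes were called by limma, as were 0.0% of all genes, and at an unadjusted p under 0.05 there were 13 listed genes, all lower with scrambled (34.2%, against 7.51% of all genes). The median difference was -0.22, against 0.00 for all genes, and 31 of 38 genes lay lower with scrambled (81.6% against 49.0%). The scrambled pair lay wholly below the luciferase pair for 22 genes, against 17.1% of all genes, and wholly above it for 2, HERC5 and MX1, against 13.4%.

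IFIT2 read 5.81 and 5.47 with scrambled and 6.46 and 6.24 with luciferase, a difference of -0.71 (SE 0.15, limma adjusted p = 0.6013), the lowest of the 38. DDX60, a helicase that assists RIG-I, read 5.65 and 5.41 against 6.18 and 6.0, and IFI44L read 5.25 and 5.40 against 5.92 and 5.81. In all 3 genes the pairs were apart, with differences of -0.56 for DDX60 and -0.54 for IFI44L (both limma adjusted p = 0.6013). The highest differences were those of MX1, a GTPase that traps viral nucleocapsids (0.23), IRF7 (0.23) and XAF1 (0.22).

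By role, the control pairs differed by a median of -0.45 in the IFIT genes (range -0.71 to -0.27), -0.44 in the RNA sensors, -0.39 in the PARP pair and -0.15 in the OAS genes. Both MX genes together had a median of 0.07.

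The arrays labelled sh_84 stood nearer to scrambled than to luciferase for 31 of 38 genes, and the share over all genes was not computed. Of all genes, 11.3% had an unadjusted limma p under 0.05 against luciferase alone and 5.13% against scrambled alone. The count of 31 can therefore not be read as particular to the listed genes. Against scrambled alone 0 listed genes were called by limma (0.00543% of all genes, a single gene, was called), and 6 had an unadjusted p under 0.05 (15.8%, against 5.13% of all genes). There 35 of 38 lay below 0 (92.1%, against 51.6% of all genes) and the median was -0.13. Against luciferase alone 7 were called, all lower (0.63% of all genes were called, 0.608% lower). In that comparison 32 of 38 lay below 0 (84.2%, against 47.3% of all genes) and the median was -0.38. The 7 were SAMD9L, TRIM22, TLR3, IFI35, IFI6, IFIT3 and IFI44L. The mean with sh_84 was below both control means for 31 of 38 genes (81.6%, against 31.3% of all genes), and the order luciferase, scrambled, sh_84 from high to low held for 29 (76.3%, against 20.2%).

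For some genes nearly all of the distance lay between the controls, and for others it did not. IFIT2 with sh_84 differed from scrambled by -0.01 (limma adjusted p = 0.9988) and from luciferase by -0.72 (limma adjusted p = 0.06875). IFI44L differed by -0.13 from scrambled (limma adjusted p = 0.9988) and by -0.67 from luciferase (limma adjusted p = 0.04927). TLR3 differed by -0.91 from scrambled (SE 0.19, limma adjusted p = 0.2608) and by -1.11 from luciferase (SE 0.19, limma adjusted p = 0.0327). The corresponding values of TRIM22 were -0.78 (limma adjusted p = 0.3079) and -1.13 (limma adjusted p = 0.02096), and those of SAMD9L were -0.67 (limma adjusted p = 0.6416) and -1.16 (limma adjusted p = 0.03196).

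**Figure D3:**
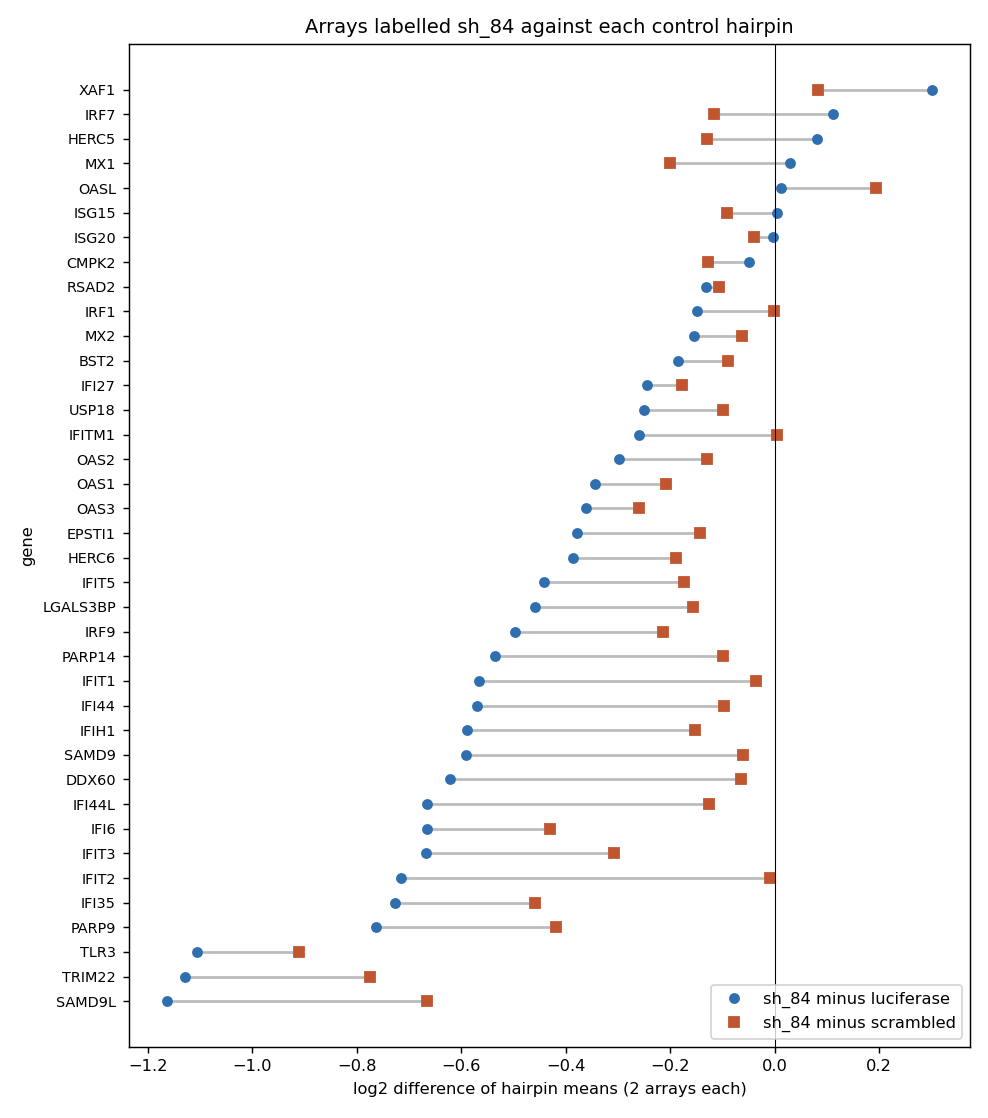
Difference in log2 expression (x axis) between the mean of the 2 arrays labelled sh_84 and the mean of luciferase (blue circles) or scrambled (orange squares) for each of 38 genes (y axis). The squares lie nearer to 0 than the circles for 31 genes (the share over all genes was not computed). TLR3, TRIM22 and SAMD9L are far below 0 against both controls.

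With sh_37, the hairpin that lowered H2AZ2 most, TRIM22, IFI6, TLR3 and SAMD9L rose, and no listed gene fell. These 4 of 38 (10.5%) compare with 12.9% of all genes called in either direction and 5.72% called higher. At an unadjusted p under 0.05 there were 10 listed genes (26.3%, against 24.4% of all genes). The sh_37 pair lay wholly above the controls for 6 genes, IFI6, OAS2, OASL, SAMD9L, TLR3 and TRIM22, against 13.9% of all genes, and wholly below them for 4, against 17.2%.

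The TRIM22 difference with sh_37 was 1.08 (SE 0.15, limma adjusted p = 0.0007946). IFI6 read 9.95 and 9.68, above every other array, and differed by 0.92 (SE 0.09, limma adjusted p = 9.208e-05). TLR3, whose array values are given above, differed by 0.76 (SE 0.16, limma adjusted p = 0.01038). SAMD9L read 8.27 and 8.01 with sh_37, above the 7.05 to 7.77 of the controls, and differed by 0.69 (SE 0.17, limma adjusted p = 0.02138). The lowest values were those of CMPK2, a mitochondrial nucleotide kinase (-0.28), DDX60 (-0.27) and the transcription factor IRF1 (-0.26, limma adjusted p = 0.07583).

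Markers of other cell types moved with sh_37 as well. Of 7 fibroblast markers LUM (1.27, limma adjusted p = 1.176e-05) and COL1A1 (0.69, limma adjusted p = 0.00401) rose, with array medians of 6.73 to 6.87 against 6.33 to 6.73 in the controls. Of 10 leukocyte markers LYZ (-0.82, limma adjusted p = 0.004757) and CD68 (-0.58, limma adjusted p = 0.001517) fell, with array medians of 5.90 to 6.15 against 5.89 to 6.31. AXL and EGFR, 2 of 5 markers of dedifferentiated melanoma, and SOX10, 1 of 9 of the melanocyte lineage, fell too. Their part in the result was not tested.

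The calls of IFI6 and TRIM22 with sh_37 held in all 22 alternative settings. Without either sh_37 array 2 genes were called, and against scrambled alone 9 were (10.4% of all genes were called there), while against luciferase alone 2 were higher and 1 lower (9.3% of all genes in either direction).

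With sh_38, which lowered H2AZ2 less, TRIM22 rose and DDX60 and OAS3 fell. These 3 of 38 genes (7.89%) compare with 4.6% of all genes. At an unadjusted p under 0.05 there were 10 (26.3%, against 20.1% of all genes), 8 of them lower. The TRIM22 difference was 0.77 (SE 0.15, limma adjusted p = 0.01423). DDX60 read 5.37 and 5.21 with sh_38, below every control array, and differed by -0.52 (SE 0.12, limma adjusted p = 0.03315). Its mean was 5.29 with sh_38, 5.53 with scrambled and 6.09 with luciferase, so most of the distance was from luciferase. Its probe set is also dim, with a mean of 5.56 over the arrays. OAS3 read 7.79 and 7.59 with sh_38 against 8.02 to 8.28 in the controls, and differed by -0.44 (SE 0.11, limma adjusted p = 0.04355).

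PARP14, a mono-ADP-ribosyltransferase, read 7.33 and 6.94 with sh_38, 7.70 and 7.25 with scrambled, and 7.94 and 7.88 with luciferase. The sh_38 pair overlapped scrambled but not luciferase, and the difference from all controls was -0.56 (SE 0.16, limma adjusted p = 0.08318). PARP9 differed by -0.49 (limma adjusted p = 0.1593). The RNA sensors had a median of -0.38 with sh_38 and the PARP pair one of -0.53, whereas XAF1 (0.32) and the mitochondrial protein IFI27 (0.28) were the highest after TRIM22. Against scrambled alone the sensors had a median of -0.17 and the pair one of -0.33. Against luciferase alone these medians were -0.6 and -0.72. The sh_38 pair lay wholly below the controls for 6 genes (DDX60, EPSTI1, IFI6, IRF1, OAS3 and RSAD2), against 12.8% of all genes, and wholly above for TRIM22 only, against 9.49%.

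The count for sh_38 rested on single arrays. It was 0 without sh_38 replicate 2 or luciferase replicate 2, 1 without sh_38 replicate 1, scrambled replicate 1 or luciferase replicate 1, and 5 without scrambled replicate 2. A fit of only the arrays compared, the small nucleolar RNA covariate and scrambled as the only control (where 2.54% of all genes were called) gave 1 each.

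The H2AZ2 hairpins were then set against each other, a comparison in which the control arrays enter only through the shared estimate of the spread. IFI6, TLR3, SAMD9L and PARP14 were higher with sh_37 than with sh_38, 4 of 38 genes against 6.27% of all genes in either direction and 4.07% higher. IFI6 read 8.63 and 8.56 with sh_38, below every control array, and the difference between the hairpins was 1.22 (SE 0.10, limma adjusted p = 9.366e-05). It was 1.03 for TLR3 (SE 0.19, limma adjusted p = 0.008668), 0.79 for SAMD9L (SE 0.19, limma adjusted p = 0.03808) and 0.76 for PARP14 (SE 0.19, limma adjusted p = 0.03822). Over the 38 genes the median was 0.14, against -0.03 for all genes, and 9 of 38 lay below 0 (23.7%, against 58.0% of all genes). There were 10 genes at an unadjusted p under 0.05, all higher (26.3%, against 17.7%). Without sh_37 replicate 1, sh_37 replicate 2 or sh_38 replicate 2 the count was 1, and without either luciferase array, or in a fit of only these arrays, it was 2.

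With sh_83, where H2AZ1 was lowest, 0 of 38 genes were called by limma, against 0.641% of all genes. At an unadjusted p under 0.05 there were 3 (7.89%, against 10.2% of all genes). The lowest differences were those of DDX60 (-0.37, limma adjusted p = 0.2526), IFI6 (-0.37, limma adjusted p = 0.1073) and MX2, a GTPase that binds the HIV capsid (-0.22, limma adjusted p = 0.2449). The mean of DDX60 was 5.44 with sh_83, 5.53 with scrambled and 6.09 with luciferase. MX2 read 9.69 and 9.67 with sh_83 and 9.86 to 9.99 in the controls, so the pair lay below all 4, as it did for IFI6 (2 of 38 genes, against 10.9% of all genes). The highest were IFI44L (0.22), IFI44 (0.21) and XAF1 (0.21). ISG15 read 7.57 and 7.51, above all 4 control arrays (7.09 to 7.49), the 1 gene of 38 to do so, against 6.88% of all genes.

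Between the hairpins labelled for H2AZ1, TRIM22, TLR3 and IFI44L were lower with sh_84 than with sh_83, 3 of 38 genes (7.89%) against 1.19% of all genes in either direction and 0.717% lower. At an unadjusted p under 0.05 there were 15, all lower (39.5%, against 11.8%). IFI44L read 5.13 and 5.27 with sh_84 and 5.98 and 5.65 with sh_83, pairs that did not overlap, a difference of -0.62 (SE 0.13, limma adjusted p = 0.04821). The differences were -0.96 for TRIM22 (SE 0.17, limma adjusted p = 0.02523) and -0.92 for TLR3 (SE 0.19, limma adjusted p = 0.04702). Over all 38 genes 35 lay lower with sh_84 (92.1%, against 52.9% of all genes), with a median of -0.20 against -0.01. The count was 0 without either sh_37 array, either sh_83 array or sh_84 replicate 2, and 1 without sh_84 replicate 1 or either luciferase array. It was also 1 after centring each array and in a fit of only these arrays.

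**Figure D4:**
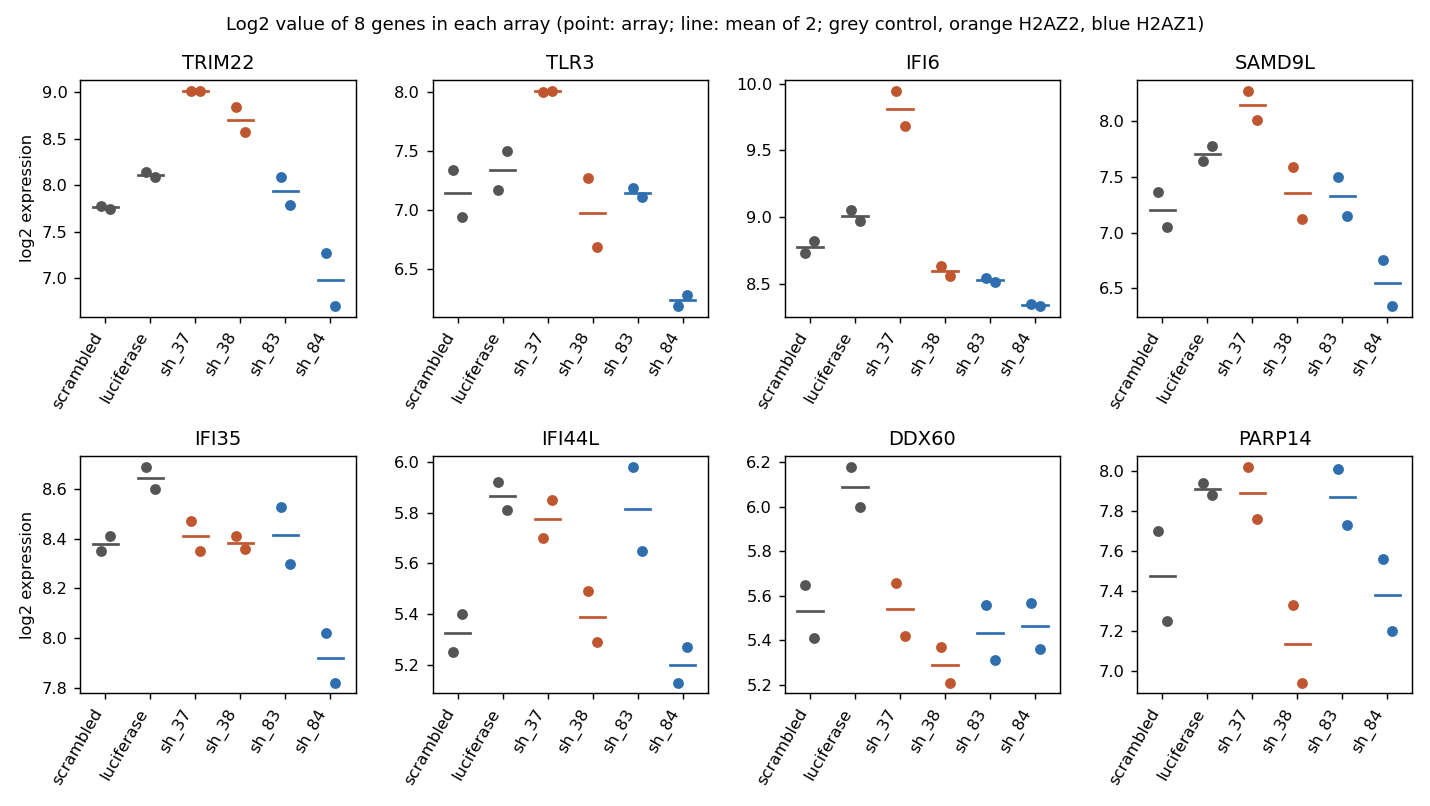
Log2 expression of 8 genes in each array (points, 2 per hairpin) with the mean of each hairpin (lines), for controls (grey), hairpins against H2AZ2 (orange) and hairpins labelled for H2AZ1 (blue); each panel has its own y axis, which does not start at 0. TRIM22, TLR3, IFI6 and SAMD9L have their highest values with sh_37 and their lowest in the arrays labelled sh_84, while IFI44L and PARP14 are high with luciferase, sh_37 and sh_83.

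When both hairpins of a target were fitted as 1 group with the hairpin as a random block, 1 of 38 genes was called for H2AZ2, TRIM22 (0.93, SE 0.24, limma adjusted p = 0.04859), against 3.31% of all genes. Its 4 arrays with H2AZ2 hairpins (8.57 to 9.02) lay above the 4 controls (7.75 to 8.14), the only listed gene to do so, against 4.14% of all genes. IRF1 and RSAD2, whose product viperin makes an antiviral nucleotide, lay wholly below, 2 of 38 against 7.46%. There were 3 listed genes at an unadjusted p under 0.05 (7.89%, against 17% of all genes). The TRIM22 call was lost without any 1 of the hairpins scrambled, luciferase or sh_37, and without any 1 of the arrays scrambled replicate 1, sh_37 replicate 1 or 2, sh_38 replicate 1, sh_83 replicate 2, sh_84 replicate 1 and luciferase replicate 1 or 2. For H2AZ1, 0 of 38 genes and 0.0% of all genes were called by limma, 3 listed genes had an unadjusted p under 0.05 (7.89%, against 3.45% of all genes), and the median was -0.12 against 0.00. IFI6 and MX2 lay wholly below the controls in these 4 arrays, 2 of 38 against 2.58% of all genes, and 0 lay wholly above, against 0.755%.

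The member levels per array summarise these patterns without a test. The median of the 38 genes was 6.89 and 6.72 in the arrays labelled sh_84, 7.25 and 7.05 with scrambled, 7.35 and 7.4 with luciferase, 7.38 and 7.35 with sh_37, 7.32 and 7.18 with sh_38, and 7.31 and 7.19 with sh_83. Replicate 2 of sh_84 was the lowest of the 12 arrays for 12 genes and replicate 1 for 7, whereas replicates 1 and 2 of luciferase were the highest for 8 and 7. Over all genes, replicates 2 and 1 of sh_84 were the lowest for 5.82% and 10.1%. Replicates 1 and 2 of luciferase were the highest for 5.48% and 13.5% of all genes. Luciferase replicate 2 was also the lowest array for 4 of the 38 genes, against 17.7% of all genes.

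The signal itself differed widely between probe sets, which gives no order of mRNA levels. The brightest in the controls were LGALS3BP, a secreted galectin-binding glycoprotein, at 10.84 ± 0.21 (SD, n = 4 arrays), MX2 at 9.91 ± 0.06 and IFI6 at 8.89 ± 0.14. The dimmest were HERC5 at 4.58 ± 0.16, RSAD2 at 4.85 ± 0.04 and BST2, which tethers budding virions, at 5.28 ± 0.18. Of the 38 genes, 13 had a mean in the dimmest 25% of all genes (below 6.30), among them IFIT1, IFIT2, DDX60, IFI44L and MX1, and their signal over background is unknown.

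Beyond the 38 genes, 113 further genes of the interferon pathway were measured of 126 listed. Of 16 interferon genes 0 were called by limma with any hairpin, and between 0 and 2 had an unadjusted p under 0.05 in each comparison with the controls. Their means ran from 3.01 for IFNA16 to 8.70 for IFNL3, with a median of 4.29, and IFNB1, an interferon made early when cells sense RNA, read 3.94 to 4.70. The 10 receptor and kinase genes had means between 6.39 for IFNLR1 and 11.47 for JAK1.

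In the arrays labelled sh_84, 6 of the 113 further genes fell (5.31%, against 0.353% of all genes called) and 0 rose. Of the 113, 75 lay below 0, against 47.6% of all genes. UBA7, the activating enzyme that loads ISG15, read 6.33 and 6.98 there and 7.43 to 7.82 in the controls, below every other array, and differed by -1.0 (SE 0.15, limma adjusted p = 0.02894). UBE2L6, the conjugating enzyme for ISG15, differed by -0.54 (limma adjusted p = 0.02962), whereas ISG15 itself differed by -0.04. PSMB9, a subunit of the immunoproteasome, differed by -0.70 (limma adjusted p = 0.03183) and C1R, a complement protease, by -0.54 (limma adjusted p = 0.02904). IFITM3 and IFITM2, which block virus entry, differed by -0.62 (limma adjusted p = 0.04327) and -0.55 (limma adjusted p = 0.02784), but their sequences are near-identical and their probe sets may share signal.

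With sh_37, 10 of the 113 genes rose and 6 fell (14.2%, close to the 12.9% of all genes). The largest rises were those of GBP2, a guanylate-binding protein (0.91, limma adjusted p = 0.006833), SLFN5 (0.62, limma adjusted p = 0.001597), SP110 (0.49, limma adjusted p = 0.006202) and C1R (0.45, limma adjusted p = 0.005164). The largest falls were those of PLSCR1, a phospholipid scramblase (-0.58, limma adjusted p = 0.01002), TRIM14 (-0.45, limma adjusted p = 0.005287), SOCS3, a feedback inhibitor of JAK kinases (-0.39, limma adjusted p = 0.01324), and USP21 (-0.31, limma adjusted p = 0.02767). With sh_38 only TRIM5, which binds retroviral capsids (0.48, limma adjusted p = 0.02301), and STAT3 (0.37, limma adjusted p = 0.01933) were called, 1.77% of the 113 against 4.6% of all genes. With sh_83 only USP21 was (-0.47, limma adjusted p = 0.03692), 0.885% of the 113 against 0.641% of all genes. TRIM5 and TRIM22 lie on the same chromosome, 11, in annotated intervals that do not overlap.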

How the data were processed

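The authors deposited 1 log2 expression value for each probe set and array, computed with RMA according to the submitters' processing notes; its version is not given in the sources consulted. Of 33297 probe sets, the platform annotation gave 19460 a single symbol, 1754 several and 12083 none. Single-symbol probe sets gave 18417 genes, 769 of them with several probe sets, of which the brightest was kept. No further normalisation was applied.

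Tests used limma 3.58.1 in R 4.3.3 on all 18417 genes with 6 hairpins as groups of 2 arrays (6 residual degrees of freedom), and, per target, a random hairpin block (consensus correlation 0.157), with Benjamini-Hochberg adjustment and a threshold of 0.05. The code was tested on simulated data. The listed genes and the pathway and marker lists were chosen with earlier results of these data known. Named genes are the targets, every called gene, the 3 highest and 3 lowest in each comparison with or between the controls and in the control mean, and up to 4 called pathway genes per direction; others named by role were chosen after their values were seen. Alternatives covered the replicate number, each array and hairpin, probe sets, dim genes, centring, normalisation, variance model, arrays fitted, small nucleolar RNA level and each control. No scan dates were analysed here, and the number of arrays limits the precision. Promoter windows are RefSeq's. Figures were drawn with matplotlib 3.10.9.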

Additional observations from a re-analysis of the deposited data

Results flagged for a closer look

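Among the 4 arrays of a target, a single array far from the other 3 was found in 3 of 78 groups examined (26 genes, each in 3 targets). The cutoff used gives about 1 in 20 by chance for 4 values from 1 normal distribution. The 4 arrays of a target come from 2 hairpins, and the genes were partly chosen by their values. The 3 of 78 therefore cannot be judged against that rate. H2AZ1 was lowest among the arrays with H2AZ2 hairpins in sh_37 replicate 1, at 11.97. HERC5 was lowest among the same arrays in sh_38 replicate 1, at 4.48. RSAD2 was lowest among the arrays labelled for H2AZ1 in sh_84 replicate 2, at 4.57. HERC5 and RSAD2 are dim probe sets.

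The hairpins of a target differed by limma's test in 7 cases. Between sh_84 and sh_83 the differences were -0.62 for IFI44L, -0.92 for TLR3 and -0.96 for TRIM22, with sh_84 lower. Between sh_37 and sh_38 they were 1.22 for IFI6, 0.76 for PARP14, 0.79 for SAMD9L and 1.03 for TLR3, with sh_37 higher. TLR3 is in both sets. H2AZ1 was at the control level in the arrays labelled sh_84, and H2AZ2 differed from the controls by -1.12 with sh_37 and by -0.61 with sh_38.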

How the results depend on the processing

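No gene reversed direction in a comparison in which it was called. Named genes that were not called there were not examined for this. For DDX60 with sh_37, which was not called, the mean was 5.54, against 5.53 with scrambled and 6.09 with luciferase. Called genes with a replicate block numbered 7 for sh_37 (4 without it), 6 for sh_38 (3), 1 for sh_83 (0) and 6 for sh_84 against sh_83 (3). For the H2AZ2 target the replicate block with the hairpin block gave 0 in place of 1. The block changed no other count by over 1.5 times. Except with a control hairpin alone, the share of all genes called in an alternative setting was not kept. A changed count therefore does not show a change particular to the listed genes. Deviations of same-numbered arrays correlated at 0.375 to 0.677 among scrambled, sh_37, sh_38 and sh_84, and at -0.469 to 0.145 between luciferase and the others. The labels name no shared batch, so the numbers were not taken as a pairing.

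Other changed counts follow. For sh_37: scrambled alone 9, single arrays left out 2 to 6. For sh_38: arrays compared alone 1, small nucleolar RNA covariate 1, scrambled alone 1, single arrays left out 0 to 5. For sh_84: quantile normalisation 0, arrays compared alone 0, covariate 8, scrambled alone 0, luciferase alone 7, single arrays left out 0 to 5. For sh_84 against sh_83: centring 1, trend and robust variance model 6, arrays compared alone 1, covariate 10, single arrays left out 0 to 3. For sh_37 against sh_38: arrays compared alone 2, covariate 8, single arrays left out 1 to 5. For the H2AZ2 target: without the dimmest 25% of genes 0, centring 0, quantile normalisation 0, no hairpin block 2, without the hairpin scrambled, sh_37 or luciferase 0 each, without the hairpin sh_38 a count of 2, single arrays left out 0 to 1. Fits of fewer arrays have fewer residual degrees of freedom, and the cause of the other changes was not tested.

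The median difference over the genes ranged from -0.05 to 0.13 for sh_37, -0.25 to 0.03 for sh_38, -0.11 to 0.06 for sh_83, -0.38 to -0.13 for sh_84 and -0.24 to -0.16 for scrambled against luciferase. TLR3, TRIM22, IFI35 and IFI6 with sh_84 kept their call in 10 to 12 of 22 settings each. Signal over background is unknown, which limits what the dim probe sets show.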

Other observations

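Of the 38 genes, 19 lie in 8 clusters of neighbours with at most 2 protein-coding genes between them, and neighbours were not always alike. SAMD9 and SAMD9L differed by -0.33 and -0.91 from the controls in the arrays labelled sh_84, the widest span of a cluster there (0.59). With sh_38 the differences of OAS1, OAS3 and OAS2 spanned 0.53, from -0.44 for OAS3 to 0.09. The 4 IFIT neighbours spanned 0.19 with sh_84, and IFI44L and IFI44 spanned 0.06.

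Replicate 1 of sh_83 was higher than replicate 2 for 35 of 38 genes, with a median gap of 0.16, against -0.00 for all genes. In the other hairpins replicate 1 was higher for 21 to 25 genes, with median gaps of 0.02 to 0.08. The largest gaps between replicates were 0.75 for IFI44 with scrambled, 0.60 for TLR3 with sh_38 and 0.57 for TRIM22 with sh_84.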
